A study of Homo sapiens with 6 samples.

Results

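The G1/S and DNA replication genes described here are 41 genes that act between the late G1 decision to divide and the copying of DNA in S phase. They were chosen by symbol as known E2F targets, MCM, ORC and GINS genes, polymerase and clamp genes, and nucleotide synthesis genes, out of 19775 genes that had a probe set with a single gene symbol on the array. A probe set is a group of short oligonucleotides read out as 1 signal, and each gene was represented by its brightest probe set over the 6 arrays. All 41 lay above the signal filter that left 12735 genes for testing. The cells were RT-112, a human bladder cancer line, in 3 groups of 2 arrays each. The first group had received siPPP2R2A_1 and the second siPPP2R2A_2, here siRNA 1 and siRNA 2, which are different siRNAs against PPP2R2A. The third group had received a scramble siRNA. Every group had 50 nM siRNA delivered with Lipofectamine RNAiMAX to freshly trypsinized cells, a repeat transfection after 24 h, and RNA isolation another 24 h later. PPP2R2A encodes a regulatory B subunit of protein phosphatase 2A. The arrays of a group, A and B, are technical duplicates per the series' design text. The p-values and intervals below therefore cover only the spread between these arrays, and the small number of arrays limits their precision. The knockdown is transient and partial, and a single cell line was used.

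In G1, cyclin E with CDK2 and other kinases phosphorylates the retinoblastoma protein, which releases E2F transcription factors to activate the genes of DNA replication. Origins are licensed when ORC, CDC6 and CDT1 load the MCM2-7 helicase, and they fire when CDC45 and the GINS complex join that helicase. Primase and the replicative polymerases then copy DNA with the sliding clamp PCNA, its RFC loader and a supply of deoxynucleotides. Transcripts of these genes rise and fall with the share of cells at G1/S. In a bulk sample fewer cells at that stage and less RNA per cell cannot be told apart.

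The feature that many of these genes share in their DNA is the E2F-type motif. It was searched as the 8-base words TTTCCCGC, TTTGGCGC, TTTCGCGC and TTTGCCGC on both strands, with overlapping matches counted separately, in RefSeq promoter windows of the GRCh38.p14 assembly that run from 250 bases before to 50 bases after an annotated start. Of the 41 genes, 37 matched a window, and 22 of these (59.5%) held at least 1 match, against 6.49% of the tested genes with a window and 3.99% of all genes in the promoter table. The list was chosen partly as E2F targets, so this share describes the list and is no independent result. CDK2, CCNE2, MCM4 and MCM5 were not matched. The stretches below show 1 match each, in capitals, with the surrounding bases on the strand of the gene, for a regulator, a licensing factor, helicase subunits, a GINS subunit, the clamp, a clamp loader and a nucleotide synthesis gene whose RNA values follow.
E2F2 (chr1:23531257-23531286, - strand): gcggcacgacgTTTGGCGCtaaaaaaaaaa
CDC6 (chr17:40287875-40287904, + strand): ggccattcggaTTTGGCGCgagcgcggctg
MCM2 (chr3:127598402-127598431, + strand): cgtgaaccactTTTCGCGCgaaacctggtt
MCM3 (chr6:52284728-52284757, - strand): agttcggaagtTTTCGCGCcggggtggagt
MCM6 (chr2:135876515-135876544, - strand): cattggtcaggTTTGGCGCgaaatctccag
MCM7 (chr7:100101388-100101417, - strand): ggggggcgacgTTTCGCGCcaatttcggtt
GINS2 (chr16:85688967-85688996, - strand): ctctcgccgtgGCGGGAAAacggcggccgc
PCNA (chr20:5126663-5126692, - strand): cagcgtcagggGCGGGAAAaggcgtgcgtt
RFC3 (chr13:33818083-33818112, + strand): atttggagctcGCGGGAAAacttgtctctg
TYMS (chr18:657603-657632, + strand): gcgggacggccGCGGGAAAaggcgcgcgga
In GINS2, PCNA, RFC3 and TYMS the capitals are a word read on the opposite strand. The MCM6 window held 4 matches, which form 2 overlapping pairs, and the MCM2 window held 1 such pair.

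The 30 matches could lie only within the window, most of which is before the start, so their positions describe the search as well as the genes. Of these matches, 25 were centred before the start and 23 within 100 bases of it. Positions in other genes were not compared. The centres spanned -183 to 11 bases with a median of -36.5. Among 40 further replication genes that are not among the 41, 12 of the 31 with a window (38.7%) held a match. Of 30 genes of G2 and mitosis, 3 of the 24 with a window (12.5%) did. The CCAAT box, searched as CCAAT on both strands, was in the windows of 22 of the 37 genes (59.5%), against 22 of 24 G2/M genes (91.7%) and 43.0% of the tested genes with a window. MCM10, whose change against scramble was the lowest of the 41 with either siRNA, had none of the 4 E2F words in its window, which says only that these letters are not there. Its 250 bases before the start are shown for that reason, with nothing capitalised.
MCM10 (chr10:13161308-13161557, + strand): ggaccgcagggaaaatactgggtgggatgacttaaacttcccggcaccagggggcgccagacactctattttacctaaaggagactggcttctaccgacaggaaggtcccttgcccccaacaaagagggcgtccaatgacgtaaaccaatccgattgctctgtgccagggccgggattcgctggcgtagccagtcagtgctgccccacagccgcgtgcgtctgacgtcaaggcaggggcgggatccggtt

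**Figure D1:**
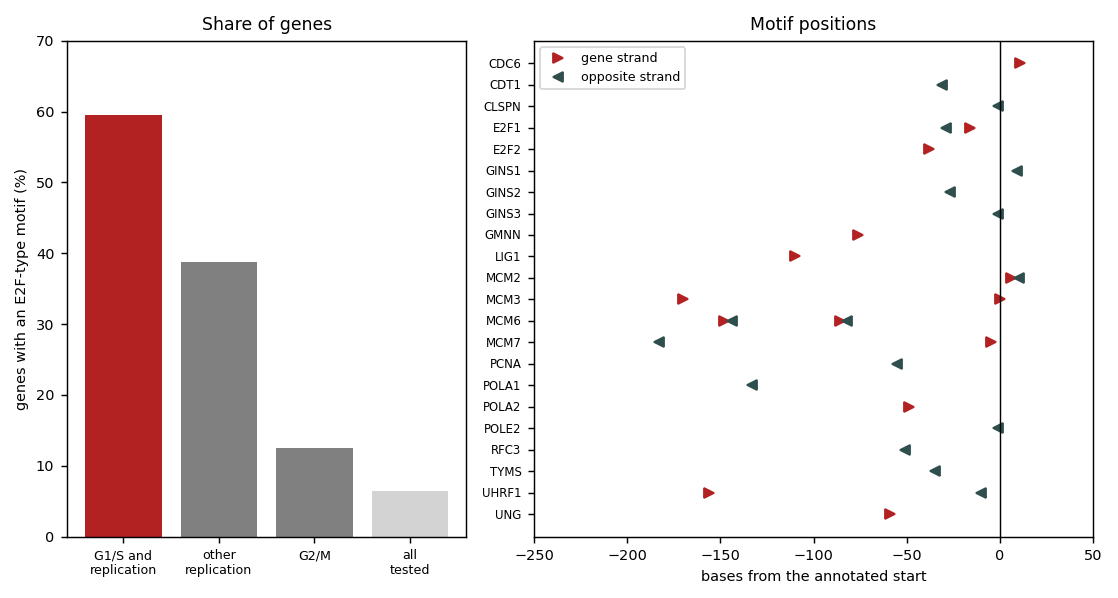
Share of genes with an E2F-type motif in a RefSeq promoter window (bars, percent of genes with a window) for the 41 G1/S and replication genes, the other replication genes, the G2/M genes and all tested genes, and the centre of each of the 30 motif matches of the first list in bases from the annotated start (triangles, by strand). The first bar stands at 59.5% and the last at 6.49%, and most triangles lie left of the start, as does most of the window.

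PPP2R2A itself had signals of 336 and 397 with siRNA 1, 510.0 and 533 with siRNA 2, and 1381 and 1589 with scramble. These correspond to 24.7% and 35.1% of scramble and to a fall on the log2 scale by 2.02 (SE 0.13, limma adjusted p = 0.0403) with siRNA 1 and by 1.51 (SE 0.13, adjusted p = 0.0461) with siRNA 2. Array medians of all probe sets lay between 69.3 and 76.2, and duplicates correlated at 0.979 to 0.980, against 0.970 to 0.978 between groups. The 3' to 5' signal ratio of ACTB, a sign of RNA integrity, averaged 7.17 with siRNA 1, 9.92 with siRNA 2 and 5.68 with scramble. By array it was 6.52 and 7.82 with siRNA 1, 7.47 and 12.37 with siRNA 2, and 5.43 and 5.94 with scramble. The siRNA 2 mean thus rests largely on array B, and the part of this ratio in the values below was not tested. For GAPDH the ratios were 1.01, 0.972 and 1.00 in the same order. All 8 epithelial and urothelial markers lay above the array median on every array, with summed signals of 134516 to 139296.5 with siRNA 1, 114177 to 122045 with siRNA 2 and 133841 to 138516 with scramble. Of 9 measured markers of other cell types, 2 to 4 did so, with summed signals of 1412 to 1527 with siRNA 1, 1429.7 to 1549.9 with siRNA 2 and 1530.5 to 1569 with scramble. Most of that sum was COL1A1, with 867 to 1034 with siRNA 1, 1123 to 1175 with siRNA 2 and 960.0 to 1116 with scramble. PTPRC, LYZ, CD14, VWF and COL3A1 lay below the filter.

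None of the 41 genes was called in any comparison on its brightest probe set, where a call needs a Benjamini-Hochberg adjusted p under 0.05 over all 12735 genes in limma together with a shift of 1.5-fold or more. The share called among all tested genes was 0.393% with siRNA 1 against scramble, 0.597% with siRNA 2 against scramble, 0.212% for siRNA 1 against siRNA 2 and 0.51% for the mean of both siRNAs against scramble. With siRNA 1 the changes ran from -0.34 (MCM10) to 0.65 (E2F2) on the log2 scale, with a median of -0.05, against 0.01 over all tested genes. With siRNA 2 they ran from -0.30 (MCM10) to 0.47 (CDT1), with a median of -0.03, against 0.02 over all tested genes. Values below scramble were seen for 26 of the 41 genes with siRNA 1 and 22 with siRNA 2. Among all 12735 tested genes they were seen for 6089 with siRNA 1 and 6061 with siRNA 2.

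The intervals were also compared on the brightest probe sets. They cover the spread between duplicate arrays and not that between separate treatments. The 95% interval of the change lay within 1.5-fold either way for 36 of 41 genes (87.8%) with siRNA 1, against 55.7% of all tested genes. With siRNA 2 it did so for 36 of 41 genes (87.8%), against 52.8%, and between the siRNAs for 35 of 41 (85.4%), against 53.9%. The duplicates of these genes lay close together, with a median residual SD of 0.0831 on the log2 scale, against 0.129 over all tested genes. The 41 genes were also brighter, with array medians of 11.44 to 11.62 on the log2 scale, against 9.49 to 9.54 over all tested genes. The part of signal level in these interval shares and spreads was not tested. Larger spreads were seen on the brightest probe sets of E2F1 (0.29), CDT1 (0.34), GINS3 (0.28) and CCNE1 (0.23).

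**Figure D2:**
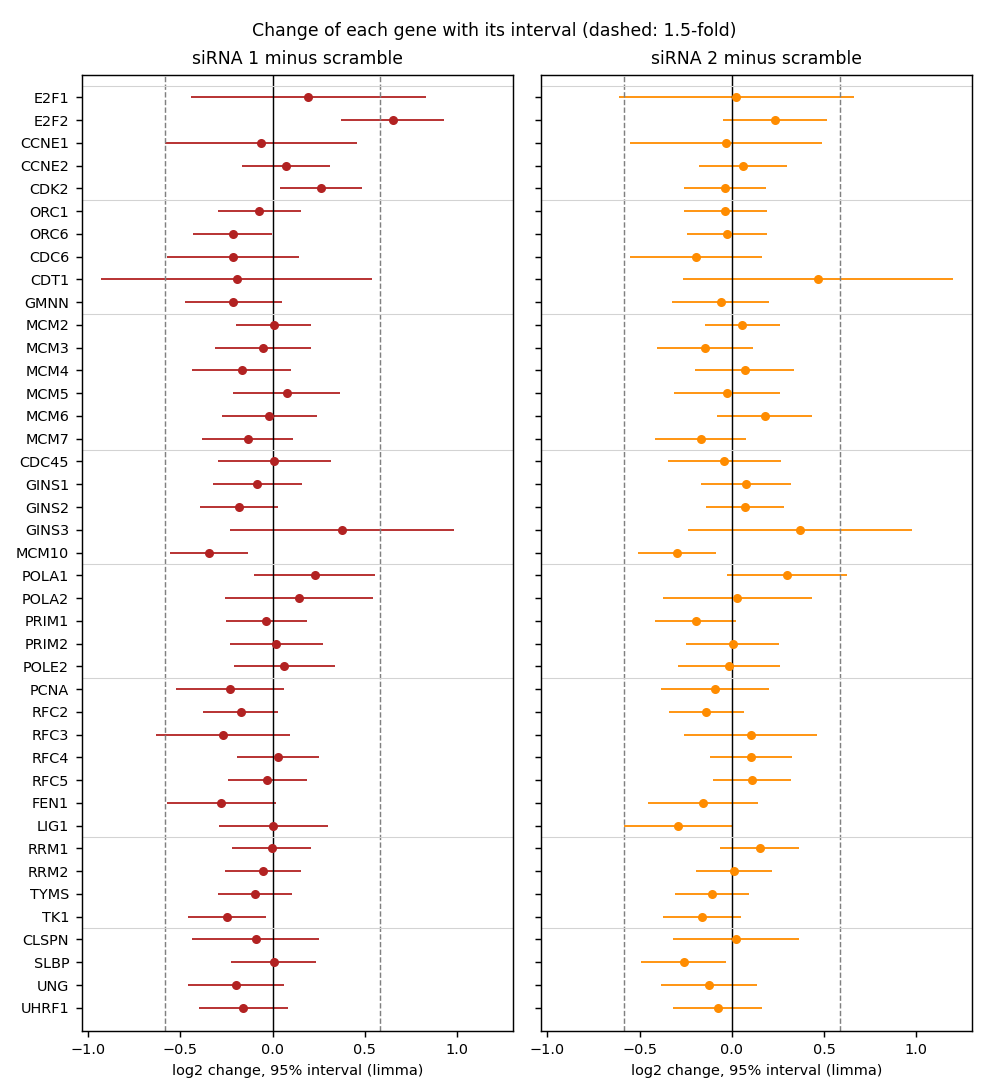
Change of each of the 41 genes on the log2 scale with its 95% interval from limma (points and bars), for siRNA 1 minus scramble and siRNA 2 minus scramble, with genes in order of role and dashed lines at a 1.5-fold change. Bars are for the brightest probe sets, and in each panel 36 of the 41 stay between the dashed lines.

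Counts at an unadjusted p under 0.05 were small. With siRNA 1, 2 genes (E2F2 and CDK2) lay above scramble at that level, or 4.88%, against 9.55% of all tested genes. In the same comparison 3 genes (MCM10, TK1 and ORC6) lay below scramble, or 7.32%, against 6.65%. With siRNA 2, 0 genes lay above, against 12%, and 2 genes (MCM10 and SLBP) lay below, or 4.88%, against 8.76%. For the mean of both siRNAs, 1 gene (E2F2) lay above, against 11.1%, and 2 genes (MCM10 and TK1) below, against 7.44%.

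The arrays themselves were also set side by side. Both siRNA 1 arrays lay above both scramble arrays for 5 genes (12.2%), against 26.7% of all tested genes, and below both for 17 genes (41.5%), against 22.7%. Both siRNA 2 arrays lay above both scramble arrays for 11 genes (26.8%), against 28.4%, and below both for 11 genes (26.8%), against 24%. These counts rest on 2 scramble arrays, and all genes of a list share them. The 17 genes below scramble with siRNA 1 included licensing, clamp and nucleotide genes, and their shifts were small, between -0.34 and -0.05 on the log2 scale.

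**Figure D3:**
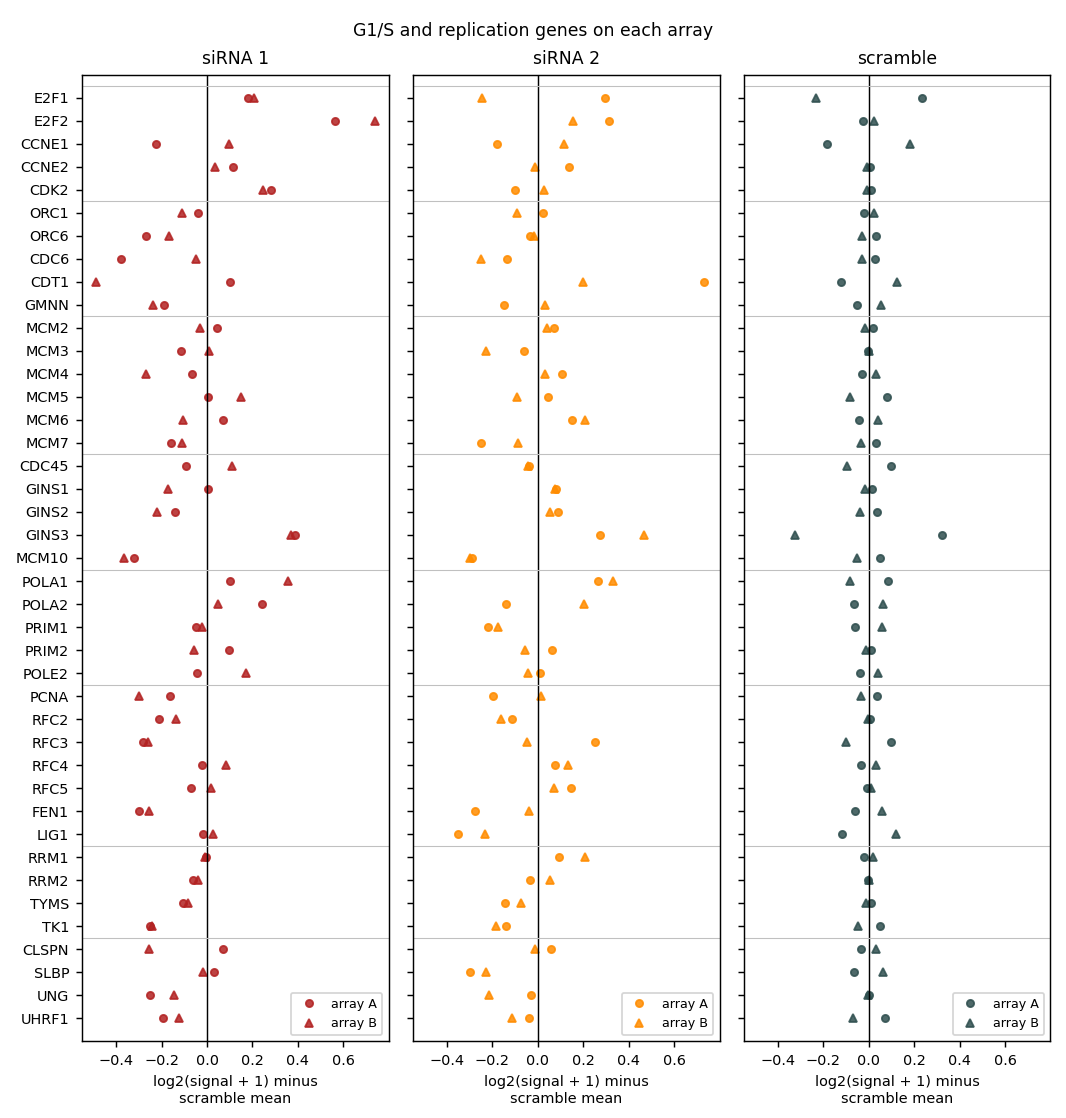
Signal of each of the 41 genes on each array as log2(signal + 1) minus the mean of the 2 scramble arrays, for siRNA 1, siRNA 2 and scramble, with circles for array A and triangles for array B and grey lines between roles. Most points crowd around the scramble mean, and the 3 farthest from it are both siRNA 1 arrays of E2F2 and siRNA 2 array A of CDT1.

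The regulators at the head of the pathway were E2F1, E2F2, the cyclin E genes and CDK2. E2F2, one of the activating E2F factors, had signals of 500.4 and 565 with siRNA 1, 421 and 377 with siRNA 2, and 333 and 344 with scramble. Both siRNA 1 arrays lay above all others, and both siRNA 2 arrays lay above both scramble arrays. The change was 0.65 on the log2 scale with siRNA 1 (SE 0.11, limma adjusted p = 0.0982) and 0.23 with siRNA 2 (SE 0.11, adjusted p = 0.309), so neither was called. With an intensity trend in the variance model the siRNA 1 value passed, at adjusted p = 0.0308. A second probe set of E2F2 above the filter was dim and its duplicates lay apart, with 80.8 and 59.6 with siRNA 1, 49.1 and 40.3 with siRNA 2, and 106 and 27.3 with scramble.

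E2F1, another activating factor, had signals of 565 and 575 with siRNA 1, 611 and 419.8 with siRNA 2, and 586 and 424 with scramble. Its duplicates with siRNA 2 and with scramble each spanned most of the range of the gene, and the groups overlapped. The change with siRNA 1 was 0.19 there (SE 0.24, adjusted p = 0.745). The other E2F1 probe set above the filter had closer duplicates, with 234 and 249 with siRNA 1, 290.1 and 276 with siRNA 2, and 276 and 307 with scramble. On it both siRNA 1 arrays lay below both scramble arrays and siRNA 2 overlapped scramble, and the change with siRNA 1 was -0.27 (SE 0.11, unadjusted p = 0.0542), opposite in sign to the brightest probe set. CCNE1 had 392 and 489 with siRNA 1, 404 and 495 with siRNA 2, and 403 and 519 with scramble, and CCNE2, the other cyclin E gene, had 1388 and 1314 with siRNA 1, 1412 and 1271 with siRNA 2, and 1289 and 1277 with scramble. For CCNE1 array B was the higher in every group, and the groups overlapped. For CCNE2 both siRNA 1 arrays lay just above both scramble arrays, and siRNA 2 overlapped scramble. On these probe sets the cyclin E changes lay between -0.06 and 0.07 on the log2 scale across both comparisons with scramble. A dim second CCNE2 probe set gave 127 and 123 with siRNA 1, 109 and 82.5 with siRNA 2, and 86.6 and 111 with scramble. Its siRNA 1 arrays lay above scramble, at 0.35 (SE 0.19, unadjusted p = 0.135), and its siRNA 2 arrays overlapped scramble. CDK2, the kinase that cyclin E activates, had 2990.5 and 2923 with siRNA 1, 2296 and 2512 with siRNA 2, and 2477 and 2449.7 with scramble. Both siRNA 1 arrays lay above the other 4, while siRNA 2 and scramble overlapped. The change was 0.26 with siRNA 1 (SE 0.08, adjusted p = 0.254) and -0.04 with siRNA 2 (SE 0.08, adjusted p = 0.846). A second, dim CDK2 probe set again had both siRNA 1 arrays above the other 4, with 137 and 132 with siRNA 1, 113 and 84.4 with siRNA 2, and 110.1 and 100.4 with scramble.

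The licensing genes are ORC1 and ORC6, subunits of the origin recognition complex, CDC6 and CDT1, which load the helicase, and GMNN, which encodes the CDT1 inhibitor geminin. ORC6 had signals of 2870.0 and 3079 with siRNA 1, 3370.4 and 3411 with siRNA 2, and 3532 and 3380.1 with scramble. Both siRNA 1 arrays lay below both scramble arrays, while siRNA 2 overlapped scramble. The log2 change was -0.22 with siRNA 1 (SE 0.08, adjusted p = 0.305) and -0.03 with siRNA 2 (SE 0.08, adjusted p = 0.885). ORC1 stood at log2 changes of -0.07 with siRNA 1 and -0.04 with siRNA 2. GMNN stood at log2 changes of -0.21 with siRNA 1 and -0.06 with siRNA 2.

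CDC6 had signals of 1286 and 1619 with siRNA 1, 1523 and 1408 with siRNA 2, and 1708 and 1639 with scramble on its brightest probe set. All 4 siRNA arrays lay below both scramble arrays there, with changes of -0.21 and -0.19 (SE 0.14 each) for siRNA 1 and siRNA 2. The other CDC6 probe set gave 1176 and 1077 with siRNA 1, 1115 and 1199 with siRNA 2, and 1759 and 1585 with scramble. On it the changes were -0.57 with siRNA 1 (SE 0.11, adjusted p = 0.183 over 23975 probe sets) and -0.53 with siRNA 2 (SE 0.11, adjusted p = 0.133). The probe sets of CDC6 therefore differ in the size of the change, and neither was called. CDT1 had 2492 and 1657 with siRNA 1, 3862 and 2673 with siRNA 2, and 2135 and 2536 with scramble, and its siRNA 2 arrays lay above both scramble arrays with a wide gap between duplicates. Its log2 change with siRNA 2 was 0.47 (SE 0.28, adjusted p = 0.421). The other CDT1 probe set above the filter gave 375 and 323 with siRNA 1, 398 and 319.6 with siRNA 2, and 446 and 312 with scramble. There all groups overlapped, and the change with siRNA 2 was -0.06 (SE 0.23), so the sign differs between the probe sets.

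The MCM2-7 genes encode the helicase that is loaded at origins and unwinds DNA ahead of the fork. None of the 6 passed the test in any comparison, and on the brightest probe sets none differed from scramble by more than 0.18 on the log2 scale. MCM2 had signals of 3823 and 3628 with siRNA 1, 3901 and 3819 with siRNA 2, and 3754 and 3665 with scramble. MCM3 had 3427 and 3735 with siRNA 1, 3556 and 3166 with siRNA 2, and 3709 and 3714 with scramble. In both genes siRNA 1 overlapped scramble, and the siRNA 2 arrays lay just above scramble in MCM2 and below it in MCM3. MCM4 had 4258 and 3704 with siRNA 1, 4808 and 4566 with siRNA 2, and 4371 and 4557 with scramble. MCM5 had 2963 and 3273 with siRNA 1, 3043 and 2769 with siRNA 2, and 3124 and 2793 with scramble. In MCM4 the siRNA 1 arrays lay just below and the siRNA 2 arrays just above the scramble arrays, and in MCM5 all groups overlapped. MCM6 had 4987 and 4410.4 with siRNA 1, 5258 and 5473 with siRNA 2, and 4612 and 4881 with scramble. MCM7 had 3359 and 3478 with siRNA 1, 3153 and 3533 with siRNA 2, and 3840.0 and 3664 with scramble. In MCM6 siRNA 1 overlapped scramble and both siRNA 2 arrays lay above it, and in MCM7 all 4 siRNA arrays lay below it. Over the 6 genes siRNA 1 gave changes between -0.17 and 0.08 and siRNA 2 between -0.17 and 0.18, and all 6 intervals lay within 1.5-fold in each comparison. The dimmer MCM probe sets above the filter reached further. A dim MCM6 probe set gave 102 and 100.1 with siRNA 1, 106 and 129 with siRNA 2, and 153 and 125 with scramble. Its siRNA 1 arrays lay below both scramble arrays, at -0.45 (SE 0.16, unadjusted p = 0.0368, adjusted p = 0.337). A second MCM5 probe set stood at 0.22 with siRNA 1 (SE 0.13), with both arrays above scramble. The 3 further MCM4 probe sets stood at -0.09, -0.11 and -0.28 with siRNA 2, opposite in sign to the brightest.

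CDC45, the GINS subunits and MCM10 turn the loaded helicase on. MCM10, which helps to start unwinding and stabilises polymerase alpha, had signals of 1318 and 1278 with siRNA 1, 1347 and 1338 with siRNA 2, and 1707 and 1592 with scramble. All 4 siRNA arrays lay below both scramble arrays, by more than the duplicates differed. The level was 78.7% of scramble with siRNA 1 (log2 change -0.34, SE 0.08, unadjusted p = 0.00909, limma adjusted p = 0.171) and 81.4% with siRNA 2 (-0.30, SE 0.08, unadjusted p = 0.0161, adjusted p = 0.148). The intervals ran from -0.56 to -0.13 and from -0.51 to -0.08, and neither change passed the test over all genes.

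MCM10 had 2 further probe sets above the filter. One gave 871 and 799 with siRNA 1, 1199 and 954 with siRNA 2, and 1407 and 1353 with scramble. Its 4 siRNA arrays again lay below both scramble arrays, with changes of -0.73 (SE 0.14, adjusted p = 0.184) for siRNA 1 and -0.37 (SE 0.14, adjusted p = 0.285) for siRNA 2. The other gave 926 and 708 with siRNA 1, 854 and 607 with siRNA 2, and 1082 and 879.9 with scramble. There siRNA 1 overlapped scramble while siRNA 2 lay below it, with changes of -0.27 and -0.44 (SE 0.24 each) for siRNA 1 and siRNA 2. All 6 estimates for the gene were negative, and they come from the same RNA.

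GINS2, a subunit of the GINS complex, had signals of 3422 and 3243 with siRNA 1, 4017 and 3917 with siRNA 2, and 3875 and 3682 with scramble. Both siRNA 1 arrays lay below and both siRNA 2 arrays above both scramble arrays. Its log2 change was -0.18 with siRNA 1 (SE 0.08, adjusted p = 0.368) and 0.07 with siRNA 2 (SE 0.08, adjusted p = 0.678). A dim GINS2 probe set gave 121 and 137 with siRNA 1, 238 and 138 with siRNA 2, and 92.3 and 113 with scramble. All 4 siRNA arrays lay above scramble on it, at 0.33 with siRNA 1 (SE 0.29), opposite in sign to the brightest, and 0.82 with siRNA 2 (SE 0.29, unadjusted p = 0.0385, adjusted p = 0.251). GINS1 stood at log2 changes of -0.08 with siRNA 1 and 0.08 with siRNA 2, and CDC45, which joins GINS on the helicase, at log2 changes of 0.01 with siRNA 1 and -0.04 with siRNA 2. GINS3 had 777 and 769 with siRNA 1, 718 and 822 with siRNA 2, and 745 and 475 with scramble, where scramble array B lay far below the other 5 arrays. Its changes were 0.38 and 0.37 (SE 0.23 each) for siRNA 1 and siRNA 2, with adjusted p = 0.498 and 0.441. The other GINS3 probe set gave 394 and 576 with siRNA 1, 540.5 and 548 with siRNA 2, and 440 and 336 with scramble. On it siRNA 1 overlapped scramble and both siRNA 2 arrays lay above scramble, with changes of 0.31 and 0.50 (SE 0.23 each) for siRNA 1 and siRNA 2.

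Polymerase alpha and primase start each DNA chain, and POLE2 is a subunit of the leading strand polymerase. POLA1, the catalytic subunit of polymerase alpha, had 1127 and 1346 with siRNA 1, 1265 and 1324 with siRNA 2, and 1114 and 993 with scramble. All 4 siRNA arrays lay above both scramble arrays, the nearest by little. Its log2 change was 0.23 with siRNA 1 (SE 0.12, adjusted p = 0.452) and 0.30 with siRNA 2 (SE 0.12, adjusted p = 0.273). POLA2, PRIM1, PRIM2 and POLE2 had changes between -0.20 (PRIM1, siRNA 2) and 0.15 (POLA2, siRNA 1). PRIM1, a primase subunit, stood at log2 changes of -0.03 with siRNA 1 and -0.20 with siRNA 2.

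PCNA is the sliding clamp, RFC2 to RFC5 are subunits of its loader, and FEN1 and LIG1 process and join lagging strand fragments. RFC3 had signals of 3054 and 3103 with siRNA 1, 4422 and 3590.4 with siRNA 2, and 3978 and 3462 with scramble. Both siRNA 1 arrays lay below both scramble arrays, while siRNA 2 overlapped scramble with its duplicates far apart. The change was -0.27 with siRNA 1 (SE 0.14, adjusted p = 0.424) and 0.10 with siRNA 2 (SE 0.14, adjusted p = 0.727). A second RFC3 probe set gave 935 and 869.6 with siRNA 1, 835 and 723 with siRNA 2, and 896 and 987 with scramble. On it siRNA 1 overlapped scramble at -0.06 (SE 0.12), and both siRNA 2 arrays lay below scramble at -0.28 (SE 0.12), opposite in sign to the brightest. PCNA stood at log2 changes of -0.23 with siRNA 1 and -0.09 with siRNA 2, and FEN1 at log2 changes of -0.28 with siRNA 1 and -0.16 with siRNA 2. In both genes the siRNA 1 arrays lay below scramble and the siRNA 2 arrays overlapped it. LIG1 had 1359.5 and 1398 with siRNA 1, 1079 and 1171 with siRNA 2, and 1267 and 1493 with scramble, so its siRNA 2 arrays lay below both scramble arrays, at a change of -0.29 (SE 0.11, adjusted p = 0.247). RFC2, RFC4 and RFC5 had changes between -0.17 (RFC2, siRNA 1) and 0.11 (RFC5, siRNA 2) on their brightest probe sets. A dimmer RFC5 probe set gave 453 and 465 with siRNA 1, 449 and 438 with siRNA 2, and 586 and 541 with scramble. Its changes were -0.30 and -0.35 (SE 0.10 each) for siRNA 1 and siRNA 2, where the brighter probe sets of RFC5 lay at -0.03 and -0.01 with siRNA 1.

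The genes of deoxynucleotide supply encode the ribonucleotide reductase subunits RRM1 and RRM2, thymidylate synthase (TYMS) and thymidine kinase (TK1). TK1 had signals of 2084 and 2099.5 with siRNA 1, 2255 and 2185 with siRNA 2, and 2568 and 2401 with scramble. All 4 siRNA arrays lay below both scramble arrays. The log2 change was -0.25 with siRNA 1 (SE 0.08, adjusted p = 0.258) and -0.16 with siRNA 2 (SE 0.08, adjusted p = 0.342). Another TK1 probe set, with 1579 and 1630.4 with siRNA 1, 1861 and 1862 with siRNA 2, and 1773 and 1667 with scramble, gave -0.10 and 0.11 (SE 0.09 each), so the siRNA 2 value differs in sign between them. TYMS stood at log2 changes of -0.10 with siRNA 1 and -0.11 with siRNA 2, RRM1 at log2 changes of -0.01 with siRNA 1 and 0.15 with siRNA 2 and RRM2 at log2 changes of -0.05 with siRNA 1 and 0.01 with siRNA 2. All 3 intervals lay within 1.5-fold with either siRNA on the brightest probe sets. The other RRM2 probe set gave 9350.4 and 9215 with siRNA 1, 9729 and 11257 with siRNA 2, and 11650.2 and 11171 with scramble. Its siRNA 1 arrays lay below both scramble arrays, at -0.30 (SE 0.11, unadjusted p = 0.0472, adjusted p = 0.358), with an interval of -0.59 to -0.01 that passes the 1.5-fold bound.

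The last 4 genes are CLSPN, which encodes the fork checkpoint adaptor claspin, SLBP, which binds histone mRNA, UNG, which removes uracil from DNA, and UHRF1, which carries DNA methylation through replication. SLBP had signals of 9187 and 8870.4 with siRNA 1, 7315 and 7677 with siRNA 2, and 8604 and 9386 with scramble. Both siRNA 2 arrays lay below the other 4, and siRNA 1 overlapped scramble. The change was 0.01 with siRNA 1 (SE 0.09, adjusted p = 0.982) and -0.26 with siRNA 2 (SE 0.09, adjusted p = 0.199). UNG stood at log2 changes of -0.20 with siRNA 1 and -0.12 with siRNA 2, UHRF1 at log2 changes of -0.16 with siRNA 1 and -0.08 with siRNA 2 and CLSPN at log2 changes of -0.09 with siRNA 1 and 0.02 with siRNA 2. Of these, UNG had all 4 siRNA arrays below both scramble arrays. UHRF1 had both siRNA 1 arrays below both scramble arrays, and its siRNA 2 arrays overlapped scramble.

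**Figure D4:**
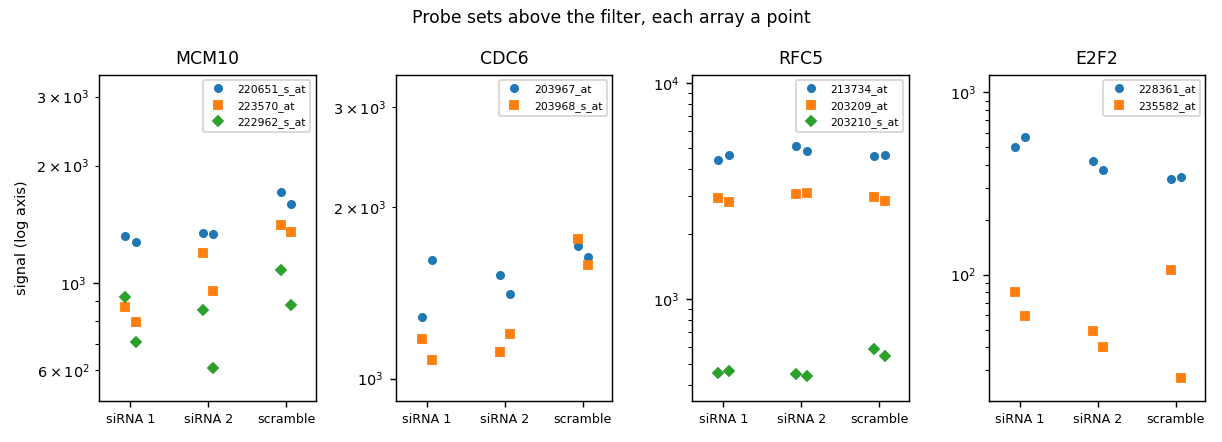
Signal on a log axis of every probe set above the filter of MCM10, CDC6, RFC5 and E2F2, with 2 arrays each (points) for siRNA 1, siRNA 2 and scramble, and symbols by probe set. All MCM10 and CDC6 probe sets have siRNA means below the scramble mean, whereas the RFC5 probe sets differ and the second E2F2 probe set scatters between duplicates.

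All probe sets of the 41 genes were also tested one by one, a setting chosen after seeing the data. Of 78 probe sets, 72 lay above the filter, and 0 of them were called with either siRNA. The calls among all 23975 probe sets were 0% with siRNA 1 and 0.00417% with siRNA 2. With siRNA 1, 2 probe sets lay above scramble at an unadjusted p under 0.05 (2.78%), against 7.4% of all, and 7 lay below (9.72%), against 6.3%. With siRNA 2, 1 lay above (1.39%), against 9.17%, and 4 lay below (5.56%), against 8.87%. Of the 31 probe sets above the filter other than the brightest, from 23 genes, 8 had a change opposite in sign to the brightest of their gene with siRNA 1, 18 with siRNA 2 and 15 between the siRNAs. The brightest probe set was of a type that can also bind related transcripts for 18 of the 41 genes (43.9%), against 35.8% of all tested genes.

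The siRNAs were then compared with each other, which asks whether silencing by different sequences left these genes at the same level. At an unadjusted p under 0.05, 3 genes (E2F2, CDK2 and SLBP) lay higher with siRNA 1, or 7.32%, against 9.16% of all tested genes. In the other direction 2 genes (RFC3 and GINS2) lay lower with siRNA 1, or 4.88%, against 9.53%. For E2F2 the difference was 0.42 on the log2 scale (SE 0.11, adjusted p = 0.164), for CDK2 0.30 (SE 0.08, adjusted p = 0.182) and for SLBP 0.27 (SE 0.09, adjusted p = 0.217). For RFC3 it was -0.37 (SE 0.14, adjusted p = 0.258) and for GINS2 -0.25 (SE 0.08, adjusted p = 0.215). The second RFC3 probe set gave 0.21 (SE 0.12), opposite in sign. On the brightest probe sets CDT1 had the widest value, at -0.66 (SE 0.28, adjusted p = 0.308), while its other probe set gave -0.04 (SE 0.23). The median over the 41 genes was -0.05, against -0.01 over all tested genes, and 0 genes were called.

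Other genes of the pathway were read from lists chosen for the same functions. Of 40 further replication genes, 38 were tested, and 0 were called in any comparison, by limma over all genes. With siRNA 1, 0 lay above scramble at an unadjusted p under 0.05 and 2 lay below. RNASEH2A, a subunit of the ribonuclease that removes RNA from DNA, had 2203 and 1959 with siRNA 1, 2733 and 2246 with siRNA 2, and 2919 and 2744 with scramble. CHAF1B, a subunit of chromatin assembly factor 1, had 554 and 442 with siRNA 1, 563 and 564 with siRNA 2, and 704 and 617 with scramble. In both genes the siRNA 1 arrays lay below both scramble arrays, at changes of -0.45 (SE 0.13, adjusted p = 0.232) and -0.41 (SE 0.14, adjusted p = 0.277). With siRNA 2, 1 gene lay above, RPA2, a subunit of the single-strand binding protein, with 1631 and 1411 with siRNA 1, 1825 and 1795 with siRNA 2, and 1426 and 1409.8 with scramble, and 1 gene lay below. Among all tested genes the shares at that level were 9.55% above and 6.65% below with siRNA 1, and 12% and 8.76% with siRNA 2. The medians of the list of further replication genes were -0.05 with siRNA 1 and -0.04 with siRNA 2.

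Of 8 further E2F and DP family genes, all were tested and 0 were called. At an unadjusted p under 0.05, 1 lay above and 1 below scramble with siRNA 1, and 2 above and 1 below with siRNA 2. Of all tested genes 9.55% lay above and 6.65% below with siRNA 1, and 12% and 8.76% with siRNA 2. E2F5, a repressive family member, had 235 and 179 with siRNA 1, 307 and 326 with siRNA 2, and 127 and 136 with scramble. Its siRNA 2 arrays lay highest, its siRNA 1 arrays in between and its scramble arrays lowest, without overlap. The change was 0.63 with siRNA 1 (SE 0.15, adjusted p = 0.174) and 1.26 with siRNA 2 (SE 0.15, adjusted p = 0.0556).

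A further list of 9 S-phase cyclin, ubiquitin ligase and CDK inhibitor genes had 8 tested, and 1 of them was called. At an unadjusted p under 0.05, 2 lay above and 3 below scramble with siRNA 1, and 3 above and 1 below with siRNA 2. The shares of all tested genes were 9.55% above and 6.65% below with siRNA 1, and 12% and 8.76% with siRNA 2. SKP2, the F-box protein that directs degradation of the CDK inhibitor p27, had signals of 6959 and 7238 with siRNA 1, 5092 and 4803 with siRNA 2, and 8375 and 8701 with scramble. SKP2 fell with siRNA 2, by 0.79 on the log2 scale (SE 0.08, limma adjusted p = 0.0490), to 57.9% of scramble. With siRNA 1 the arrays lay below scramble too, at -0.27 (SE 0.08, adjusted p = 0.240), and the difference between the siRNAs was 0.52 (SE 0.08, adjusted p = 0.0869). When any 1 of the 6 arrays was left out, the log2 change of SKP2 with siRNA 2 lay between -0.83 and -0.75. Those fits, the replicate block, the fit without the filter and the mean of probe sets called no gene at all with siRNA 2. The loss of the SKP2 call there was fixed in advance and says nothing about SKP2. The call was kept with an intensity trend and with a pseudocount of 16. It was lost after quantile normalization, where 71 of all tested genes were called, and with median centring, where 1 was. The SKP2 probe set is of a type that can also bind related transcripts, and the mean of all SKP2 probe sets gave -0.72 with siRNA 1. Over 13 other settings the SKP2 difference between the siRNAs ran from 0.12 to 0.56 on the log2 scale, so its size depended on the setting. With siRNA 2, 4 of the 8 epithelial and urothelial markers also lay below scramble at an unadjusted limma p under 0.05 without being called. These were KRT8 (-0.62), CDH1 (-0.49), KRT19 (-0.27) and GATA3 (-0.32). Of all tested genes, 8.76% lay below scramble at that level with siRNA 2. KRT7 (-0.15) and KRT18 (-0.06) changed less, and EPCAM (0.09) and PPARG (0.16) lay above scramble. The part of these markers in the SKP2 value was not tested. CDKN1B, which encodes p27, had 3202 and 2704 with siRNA 1, 3064 and 3109 with siRNA 2, and 2236 and 2169 with scramble. CDKN1A, which encodes the CDK inhibitor p21, had 3725 and 3659 with siRNA 1, 3886 and 4299.7 with siRNA 2, and 2825 and 2992 with scramble. In both inhibitor genes all 4 siRNA arrays lay above both scramble arrays, and neither gene was called. Both arrays of a group lay above both scramble arrays for 26.7% of all tested genes with siRNA 1 and 28.4% with siRNA 2. The changes of CDKN1B were 0.42 and 0.49 (adjusted p = 0.196 and 0.111) and those of CDKN1A 0.34 and 0.49 (adjusted p = 0.201 and 0.0846) for siRNA 1 and siRNA 2. FBXO5, which encodes the APC/C inhibitor EMI1, had 897 and 793 with siRNA 1, 1534 and 1319 with siRNA 2, and 1027 and 1092 with scramble. Its siRNA 1 arrays lay below and its siRNA 2 arrays above both scramble arrays, at -0.33 (SE 0.12, adjusted p = 0.295) and 0.43 (SE 0.12, adjusted p = 0.154). The difference of siRNA 1 minus siRNA 2 was -0.75 (SE 0.12, unadjusted p = 0.00188, adjusted p = 0.0877). FBXW7, the F-box protein that targets cyclin E, stood at -0.34 with siRNA 1 (SE 0.12, adjusted p = 0.284) and -0.18 with siRNA 2 (SE 0.12, adjusted p = 0.460).

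The 30 G2/M genes, which mark cells further on in the cycle, were all tested and 0 were called. Their medians were -0.0027 with siRNA 1 and -0.04 with siRNA 2. At an unadjusted p under 0.05, AURKA, a mitotic kinase, lay below scramble with siRNA 1 and no gene lay above. With siRNA 2 the count was 0 in both directions. The shares of all tested genes were 9.55% above and 6.65% below with siRNA 1, and 12% and 8.76% with siRNA 2. AURKA had 8364 and 7794 with siRNA 1, 8200.1 and 8285 with siRNA 2, and 9661 and 9249 with scramble, a change of -0.23 with siRNA 1 (SE 0.08, adjusted p = 0.291). The middle of the distribution of changes therefore lay near 0 in the replication lists and in the G2/M list alike, and no difference between these lists was tested.

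**Figure D5:**
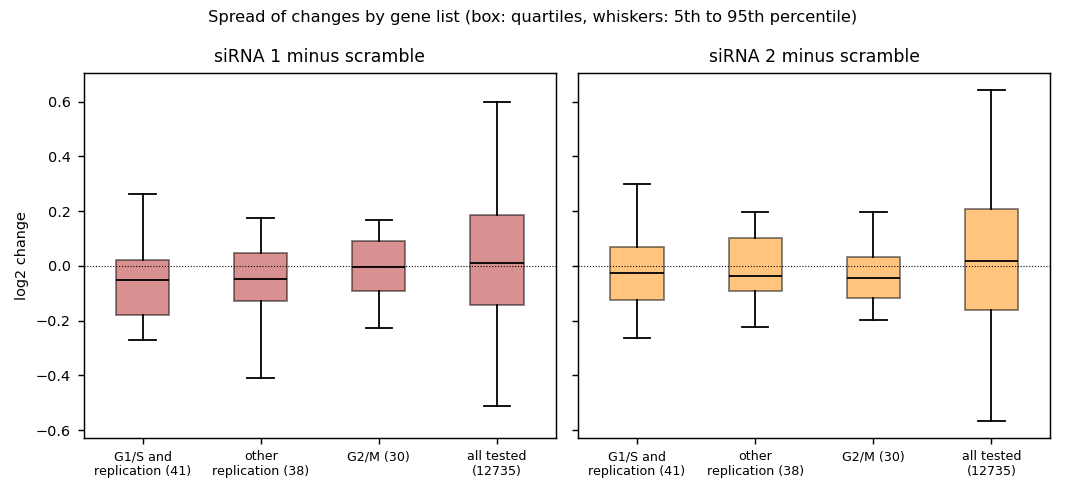
Distribution of log2 changes against scramble for the 41 G1/S and replication genes, the 38 other replication genes, the 30 G2/M genes and all 12735 tested genes, for siRNA 1 and siRNA 2 (box for quartiles, line for the median, whiskers for the 5th to 95th percentile). The medians of the first list are -0.05 and -0.03, and its boxes are narrower than those of all tested genes. The lists were not matched for signal level.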

How the data were processed

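Gene expression was measured on 6 arrays of RT-112 cells, 2 technical duplicates in each of 3 groups taken from the sample titles. The deposited table holds signal intensity on a linear scale for each probe set, scaled per its own values so that the mean after trimming 2% from each tail was 500.067 to 500.07 on every array. Affymetrix Expression Console made these values, per the submitters' processing notes, and the sources used here give neither its algorithm nor its version. No detection calls were used.

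Signals were used as log2(signal + 1). Of 54675 probe sets, 41097 carried 1 gene symbol in the platform table, 1801 several, 11777 none, and 62 of all were controls. Each gene took its probe set with the highest mean log2 signal, and was tested where that probe set passed the array median (the 50th percentile) on at least 2 arrays. Groups were fitted over all 6 arrays with limma 3.58.1 in R 4.3.3 (lmFit and eBayes, 3 residual and 1.72 prior degrees of freedom) with Benjamini-Hochberg adjustment over 12735 genes. The fit was tested on simulated data. Intervals are limma's 95% intervals.

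The genes and lists were chosen with earlier results of these data known. Genes named in full are those with a call or an unadjusted p under 0.05 in any comparison, plus MCM2 to MCM7, E2F1, E2F2, CCNE1, CCNE2 and CDK2, and the others appear as ranges or as examples chosen after their values were seen. Genes of other lists were named by the same thresholds, as examples where several passed. The letters A and B were not treated as pairs across groups. The differences B minus A correlated at -0.0309 to 0.0383 between groups. This shows no strong shared shift over all genes but cannot show whether the arrays were handled in sets. Alternatives tried were quantile normalization, median centring, a replicate block, an intensity trend, a pseudocount of 16, no filter, the mean of probe sets, unshared probe set types, leaving out each array and testing every probe set. The TATA box position was checked to set the strand of the promoter windows. Figures used Python 3.11.15 and matplotlib 3.10.9.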

Additional observations from a re-analysis of the deposited data

How the results depend on the processing

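The count of called genes among the 41 stayed at 0 in all 4 comparisons under every setting run, except that an intensity trend called 1 gene, E2F2 with siRNA 1. Several settings, given below, called no gene of all those tested. There a count of 0 among the 41, and MCM10 not being called, were fixed in advance and show no stability. The median log2 change with siRNA 1 (-0.0527) was -0.0283 with unshared probe set types, which keep 31 of the genes, and -0.0856 to -0.0466 when 1 array was left out. With siRNA 2 (-0.0254) it was -0.0006 with median centring and -0.0311 to -0.0058 with 1 array left out. For siRNA 1 against siRNA 2 (-0.0485) it was -0.0691 with median centring, -0.0213 with unshared types and -0.0704 to -0.0275 with 1 array left out. For the mean of both siRNAs (-0.0481) it was -0.0335 with median centring, -0.0722 with the mean of probe sets, -0.0036 with unshared types and -0.0680 to -0.0218 with 1 array left out. The cause of these shifts was not tested. With the replicate block the medians were the same, at -0.0527, -0.0254, -0.0485 and -0.0481, and 0 of the 41 genes were called. Calls over all genes depended strongly on the setting. In the order siRNA 1, siRNA 2, siRNA 1 against siRNA 2 and the mean, they numbered 50, 76, 27 and 65. They numbered 299, 472, 362 and 278 with an intensity trend, 65, 162, 30 and 102 with a pseudocount of 16, 33, 71, 12 and 72 after quantile normalization, and 11, 1, 0 and 9 with median centring. They numbered 11, 0, 5 and 16 with unshared types and 0, 0, 0 and 1 with the mean of probe sets, and 0 with the replicate block, without the filter or with any array left out. MCM10 stayed below scramble with both siRNAs under all settings, at -0.73 to -0.29 with siRNA 1 and -0.37 to -0.25 with siRNA 2, and was never called. For the 17 genes named in full, 699 single-gene changes were recomputed under another setting, and 40 changed sign, none of them called. Some of these 17 were picked for a low unadjusted p, and the rest of the 41 were not included in this count. Arrays limit what can be seen here through the number of duplicates and through signal near background, where no detection calls were used.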
